A study of Mus musculus with 10 samples.

Results

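H3K27me3 peaks were compared between CD71+Ter119-/lo pro-erythroblasts and CD71+Ter119high erythroblasts that both lacked Mtf2. The regions are all autosomal peaks of the 2 Mtf2-null peak lists, chosen by list and chromosome alone and with no limit on score, length or enrichment. They comprised 1331 peaks in pro-erythroblasts and 5129 in erythroblasts, together 6460 of the 50907 peaks in the 6 lists of the series. The comparison asks which H3K27me3 regions the Mtf2-null cells of the earlier stage had in common with those of the later stage, and where the peaks particular to each list lay.

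Fetal liver (FL) cells of e14.5 Pcl2 -/- mice were sorted by CD71, the transferrin receptor, and Ter119, an erythroid surface antigen. Pcl2 is another name of Mtf2. The mice came from gene-targeted C57Bl/6 embryonic stem cells aggregated with CD1 blastocysts and were then bred on C57Bl6/J, and the labels give the strain as C57Bl/6. The knockout is constitutive, so the stroma of the FL lacked Mtf2 as well. Chromatin of 500000 cells per sample was used. For each fraction, 1 H3K27me3 library and 1 IgG control library of the same genotype and fraction were analysed here, whereas the methods state replicates of 2 and do not say whether these were pooled. WT lists of H3K27me3 and Mtf2 from both fractions serve only as reference. With 1 library per condition there is no spread between replicates and no test, so the differences below describe these libraries and the intervals cover counting error only. The opening line of the series description names H3K4me3, while the sample labels name H3K27me3. Peak lists hold no expression, so neither the loss of Mtf2 nor the identity of the sorted cells could be checked from them.

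Polycomb repressive complex 2 (PRC2) trimethylates lysine 27 of histone H3 through its catalytic subunit Ezh2 or Ezh1, with Eed and Suz12 as the other core subunits. The mark is found at the promoters of silent developmental genes, most of all at CpG islands, where it helps to keep them repressed. Mtf2 is one of the Polycomb-like accessory proteins, which bind unmethylated CpG-rich DNA and bring PRC2 to it. Pro-erythroblasts gain Ter119 as they mature into erythroblasts, in which the chromatin condenses and the globin genes become highly active.

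The libraries differed in depth. The pro-erythroblast ChIP library held 37026535 unique tags and its IgG control 39667267, a ratio of 0.933, whereas the erythroblast ChIP library held 67169672 and its IgG control 20646036, a ratio of 3.25. The ChIP library of erythroblasts was thus 1.81 times as deep. The peak caller estimates the false discovery rate (FDR) by exchanging ChIP and IgG, and it gave 100% for all 1331 pro-erythroblast peaks, while the highest FDR of an erythroblast peak was 1.16%. Depth, the ratio to IgG and stage cannot be told apart in these lists.

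Sequences around the summits of the strongest peaks show how much of the central 200 bases was repeated elsewhere in the genome. Each is 200 bases of the plus strand of NCBIM37 (mm9), and the capitals mark bases inside a 25-base word that occurs at least 10 times in the autosomes and X, on either strand. Shown are the highest-scoring erythroblast-only peaks, the highest-scoring pro-erythroblast-only peaks and the shared locus with the highest lower score, around its erythroblast summit.
erythroblast-only peak nearest Gm8730, chr8:105604840-105605039: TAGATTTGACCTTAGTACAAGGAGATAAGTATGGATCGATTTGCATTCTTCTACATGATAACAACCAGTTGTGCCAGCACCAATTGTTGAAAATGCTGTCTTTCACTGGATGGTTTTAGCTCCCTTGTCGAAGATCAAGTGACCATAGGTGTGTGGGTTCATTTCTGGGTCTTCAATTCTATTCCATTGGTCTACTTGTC
erythroblast-only peak nearest Cdc42bpa, chr1:181834124-181834323: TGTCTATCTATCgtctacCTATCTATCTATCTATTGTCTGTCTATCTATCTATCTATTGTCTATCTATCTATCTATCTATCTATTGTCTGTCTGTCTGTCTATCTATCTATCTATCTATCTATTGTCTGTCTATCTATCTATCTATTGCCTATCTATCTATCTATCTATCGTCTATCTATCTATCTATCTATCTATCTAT
pro-erythroblast-only peak in Plec, chr15:76010330-76010529: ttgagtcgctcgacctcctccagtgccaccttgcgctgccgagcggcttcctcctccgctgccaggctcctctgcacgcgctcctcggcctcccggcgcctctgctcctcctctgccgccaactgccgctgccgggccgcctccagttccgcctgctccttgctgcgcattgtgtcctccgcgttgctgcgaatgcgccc
pro-erythroblast-only peak nearest Flrt2, chr12:96885478-96885677: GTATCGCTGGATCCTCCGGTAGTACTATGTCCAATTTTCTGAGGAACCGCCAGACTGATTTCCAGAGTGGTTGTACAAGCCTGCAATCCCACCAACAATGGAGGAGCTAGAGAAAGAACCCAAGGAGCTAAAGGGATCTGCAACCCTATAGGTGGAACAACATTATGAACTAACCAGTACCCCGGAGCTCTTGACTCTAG
pro-erythroblast-only peak nearest Gm10121, chr16:16013607-16013806: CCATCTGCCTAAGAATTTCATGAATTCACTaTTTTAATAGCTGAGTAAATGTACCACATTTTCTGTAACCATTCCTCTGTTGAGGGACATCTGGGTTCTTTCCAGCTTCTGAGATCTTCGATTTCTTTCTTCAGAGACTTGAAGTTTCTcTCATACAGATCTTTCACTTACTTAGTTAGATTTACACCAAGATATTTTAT
shared peak nearest 1700104B16Rik, chr8:34820456-34820655: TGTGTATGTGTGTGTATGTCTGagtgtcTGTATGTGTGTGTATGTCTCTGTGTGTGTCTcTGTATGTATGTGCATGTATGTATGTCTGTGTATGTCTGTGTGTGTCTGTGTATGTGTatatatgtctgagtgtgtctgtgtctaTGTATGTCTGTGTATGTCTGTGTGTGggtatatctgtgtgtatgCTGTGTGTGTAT
The first erythroblast-only sequence was in capitals over 100% of its length and the next over 97%, the latter being a run of short tandem units. The Plec sequence, with 70.5% GC, held no repeated word, while those nearest Flrt2 and Gm10121 were in capitals over 100% and 99%. The shared sequence had 74% in capitals. In the wider 1 kb around each summit, such words made up 98.3%, 63.3%, 0%, 75.9%, 40.7% and 10.3% of all 25-base words, in the order shown. This is a share of words, whereas the capitals give the share of bases that lie in any such word. The values over 1 kb and over the 200 bases are therefore not directly comparable. The sequences of both stages thus included ones made almost wholly of repeated words.

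Peaks were fewer, shorter and weaker in score in Mtf2-null pro-erythroblasts than in erythroblasts. The erythroblast list held 3.85 times as many peaks and covered 9.50 Mb, against 1.12 Mb in pro-erythroblasts, which corresponds to 0.397% and 0.0468% of the autosomal bases. The median length was 753 bp in pro-erythroblasts (95% interval 741 to 765, n = 1331) and 1392 bp in erythroblasts (1363 to 1419, n = 5129). Only 6 pro-erythroblast peaks, 0.451% (95% Wilson interval 0.207% to 0.980%), reached 2 kb, compared with 1607 erythroblast peaks, 31.3% (30.1% to 32.6%). No pro-erythroblast peak reached 5 kb, so that a share of 0.225% or less remains possible, whereas 141 erythroblast peaks did.

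**Figure D1:**
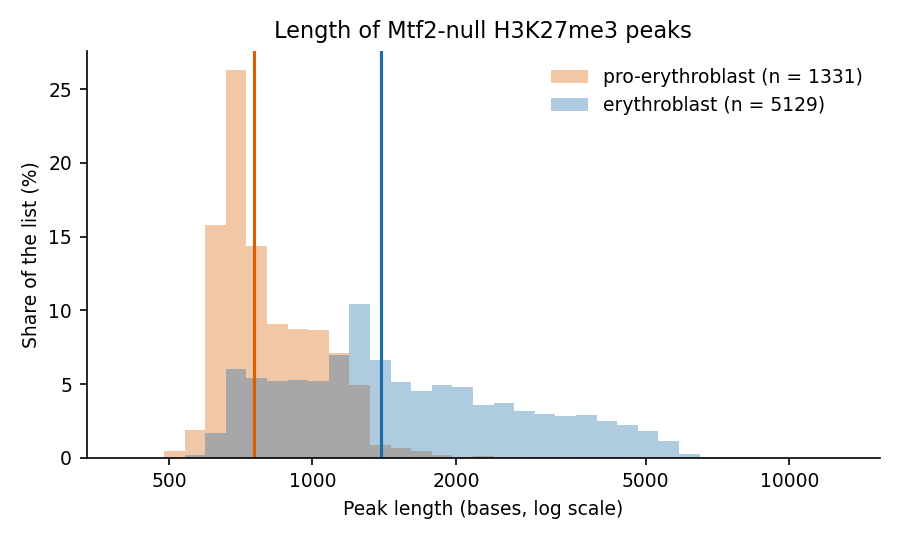
Histogram of peak length in bases on a log axis for the Mtf2-null pro-erythroblast (n = 1331) and erythroblast (n = 5129) lists, as a share of each list, with vertical lines at the medians of 753 and 1392 bp. The pro-erythroblast peaks sit in a narrow band below 1500 bp, and the erythroblast peaks extend past 5000 bp.

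The longest pro-erythroblast peak had 3973 bp (chr5:146478856-146482828) and lay between genes, 49.9 kb from a TSS of Cyp3a41a, a cytochrome P450 gene. The longest erythroblast peak had 12429 bp (chr4:145565663-145578091) and lay in an intron of 2610036A22Rik. The median score, which rises as the peak caller's p falls and is scaled from its log10, was 55.9 in pro-erythroblasts and 61.8 in erythroblasts. A score of at least 100 was reached by 16 peaks of the earlier stage and 432 of the later. The fold enrichment over IgG went the other way, with a median of 7.14 in pro-erythroblasts (95% interval 6.98 to 7.29) and 5.25 in erythroblasts (5.19 to 5.31). Scaled to depth, the median tag density inside peaks was 1.02 tags per kb of peak, with each library scaled to the same number of unique tags (1e+06), in pro-erythroblasts and 0.887 in erythroblasts, where unique tags spread evenly over the autosomal bases would give 0.418. The peaks thus rose 2.44 and 2.12 times above an even spread.

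Few regions were shared between the stages. Of the 1331 pro-erythroblast peaks, 40 (3.01%, 95% Wilson interval 2.21% to 4.07%) shared at least 1 base with an erythroblast peak. These touched 37 of the 5129 erythroblast peaks (0.721%, 0.524% to 0.993%). As a background, peaks of the same lengths placed at every autosomal position would touch an erythroblast peak in 0.575% of placements, or 7.65 of 1331. The remaining 1291 pro-erythroblast peaks and 5092 erythroblast peaks were found in 1 stage only. When the erythroblast list was reduced to its 1331 highest-scoring peaks, 1.28% of the pro-erythroblast peaks were overlapped. Among peaks with a score of at least 100 no overlap was left.

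The neighbourhoods were compared over all pro-erythroblast summits, those of overlapping peaks included. Of these summits, 71 (5.33%, 95% Wilson interval 4.25% to 6.68%) fell within 10 kb of an erythroblast peak, a zone that holds 4.50% of the autosomal bases. Most of the 71, namely 40, lay inside or within 1 kb of such a peak, a zone of 0.818% of the bases. The count within 10 kb thus rests largely on the overlaps and shows no added closeness beyond them. Within 100 kb the count was 345 (25.9%, 23.6% to 28.3%), below the 32.7% of bases in that zone. Peaks of 1 stage seldom stood in groups. With gaps of up to 10 kb joined, 3.38% of pro-erythroblast peaks and 8.27% of erythroblast peaks had a neighbour, and no group exceeded 3 peaks.

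At the shared loci the erythroblast peak was the longer one in 34 of 40 overlapping pairs. The fold enrichment was higher in pro-erythroblasts in 36 of 40 pairs, with medians of 6.315 and 4.895, and the depth-scaled tag density was higher in pro-erythroblasts in 34 of 40 pairs, with medians of 1.05 and 0.869. The summits lay a median of 218.5 bp apart, and 27 pairs had summits within 500 bp of each other. In 39 of 40 pairs the overlap covered at least 50% of the shorter peak. Several pairs involve the same erythroblast peak, so the pairs are not independent.

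**Figure D2:**
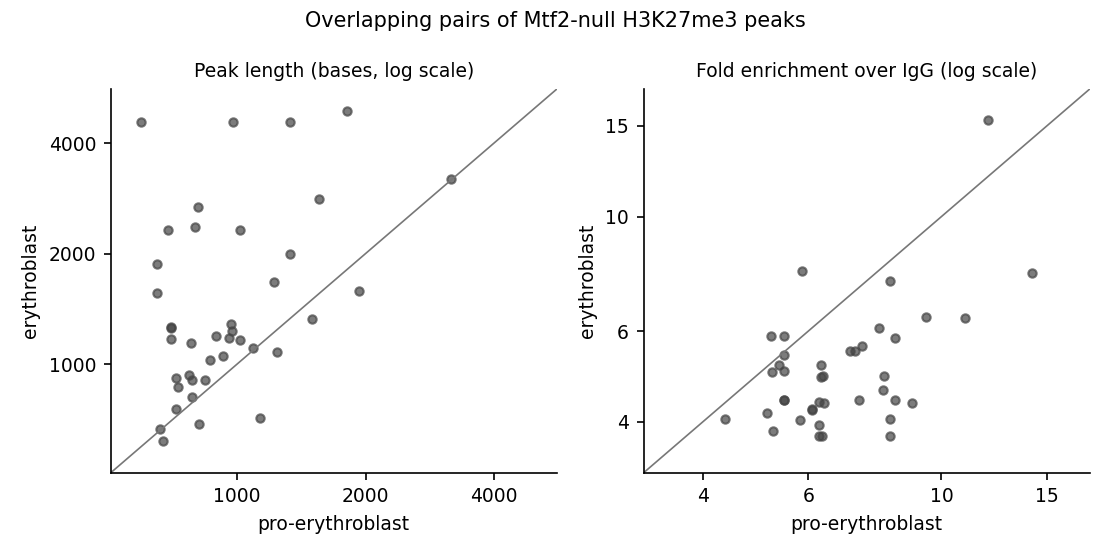
Length in bases and fold enrichment over IgG, on log axes, of the 40 overlapping pairs of Mtf2-null peaks, with the pro-erythroblast value on the horizontal and the erythroblast value on the vertical axis and the diagonal drawn as a line. Most points lie above the diagonal for length (34 of 40) and below it for fold enrichment (36 of 40).

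The shared locus with the highest lower score of both stages lay between genes on chromosome 8, 22.3 kb from 1700104B16Rik, with a score of 89.4 in pro-erythroblasts and 110.5 in erythroblasts. Next was a region 4.55 kb from a TSS of Gm853 (chr4:129880741-129883913 in pro-erythroblasts), with 84.7 and 106.3. An intronic region of Rasgrf1, which encodes a guanine nucleotide exchange factor for Ras, was covered by 3 short pro-erythroblast peaks and 1 erythroblast peak of 4569 bp (chr9:89853970-89858538). Its highest pro-erythroblast score was 84.1 and its erythroblast score 162.5. Between genes and 47.8 kb from the TSS of Acan, the gene of the cartilage proteoglycan aggrecan, the scores were 77.6 and 91.4. The locus nearest Josd2, a deubiquitinase gene, had 73.8 and 116.4.

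Short tandem repeats were common at the shared loci. At least 20% of the 1 kb around the summit was tandem repeat, with units of up to 6 bases in runs of at least 24 bases, in 8 of the 40 shared pro-erythroblast peaks (20%, 95% Wilson interval 10.5% to 34.8%). The share was 1.24% (0.764% to 2.004%) in pro-erythroblast-only peaks, 2.16% (1.80% to 2.60%) in erythroblast-only peaks and 0.342% in autosomal 1 kb tiles taken at regular steps. The Acan locus is of this kind, with 37.2% of the window in tandem repeats in the pro-erythroblast peak. The 3 pro-erythroblast peaks in Rasgrf1 had 13.8% to 19.8% and fell short of that limit. Shared pro-erythroblast peaks had a median length of 852 bp against 750 bp for those of that stage only, and a median GC content of 40.2% against 43.7%. Shared erythroblast peaks had a median length of 1178 bp, against 1394.5 bp for those of that stage only.

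The strongest pro-erythroblast-only peak lay in an exon of Plec (chr15:76009749-76011800), the gene of the cytoskeletal linker plectin. Its 86 tags gave it a score of 177.95 at 10.0-fold enrichment. The peak nearest Flrt2 (chr12:96884937-96886188), which encodes a leucine-rich transmembrane protein, had the highest fold enrichment of the list, 35.97, with 82 tags. A further peak in an intron of 2310008H04Rik (chr16:16013076-16014309) had a score of 148.8. An exonic peak in Zfpm1 (chr8:124859582-124861081), the gene of the Gata1 cofactor Fog1, had a score of 138.3 with 63 tags at a fold enrichment of 8.20. It was 54.0 kb from the TSS of Zfpm1 and nearest by TSS to Trhr2, at 24.6 kb. The fifth peak lay between genes, 38.1 kb from a TSS of the neurexophilin gene Nxph2, with a score of 125.6.

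The strongest erythroblast-only peaks lay mostly between genes. The highest score of the list, 238.8 with 135 tags and a fold enrichment of 7.84, belonged to a peak 215.2 kb from Gm8730 (chr8:105604317-105606281). It was followed by peaks 56.4 kb from Cdc42bpa, a Cdc42-binding kinase gene, with a score of 231.7, and 1434 kb from Gm9008, with 221.2. The fourth lay in an intron of Hecw1, an E3 ubiquitin ligase gene, with 207.7. The fifth, of 5945 bp, lay 12.1 kb from the vomeronasal receptor gene Vmn1r21, with a score of 207.5. The highest fold enrichment of the erythroblast list, 23.9, was at a peak 357.6 kb from Zwint, a kinetochore gene.

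Mtf2-null erythroblast peaks were fewer in promoters, exons and introns than the share of bases in these classes, whereas pro-erythroblast peaks were spread over these classes almost as the bases themselves are. Each summit was given the first class that held it, starting from proximal promoters, which reach 1 kb to either side of a TSS, and distal promoters, which reach 5 kb upstream, then exons, introns and intergenic sequence. Proximal promoters, with 3.18% of the autosomal bases, held 49 pro-erythroblast summits (3.68%, 95% Wilson interval 2.80% to 4.83%) and 22 erythroblast summits (0.429%, 0.283% to 0.649%). Distal promoters, with 5.14% of the bases, held 7.74% (6.42% to 9.30%) and 2.91% (2.48% to 3.40%). Exons, with 2.06% of the bases, held 21 pro-erythroblast summits (1.58%, 1.03% to 2.40%) and 5 erythroblast summits (0.0975%, 0.0416% to 0.228%). Introns, with 32.5% of the bases, held 32.2% and 20.5% of the summits. Intergenic sequence, with 57.1% of the bases, held 54.8% (52.2% to 57.5%) and 76.1% (74.9% to 77.2%).

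**Figure D3:**
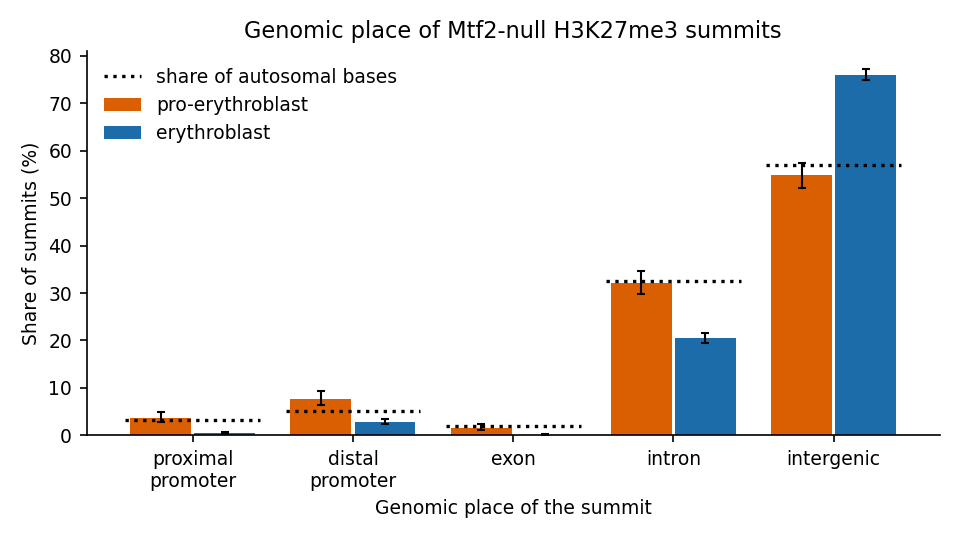
Share of summits in each genomic class for the Mtf2-null pro-erythroblast (n = 1331) and erythroblast (n = 5129) lists, as bars with 95% Wilson intervals, with dotted lines at the share of autosomal bases in that class. The erythroblast bars are below the dotted line in every class but intergenic, where 76.1% of summits compare with 57.1% of bases.

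In the pro-erythroblast list, only distal promoters were set apart from the base composition of the genome, at 1.505 times their share of bases (95% Wilson interval 1.25 to 1.81). The ratio for proximal promoters was 1.16 (0.879 to 1.52). In erythroblasts it was 0.135 (0.0891 to 0.204) in proximal promoters and 0.0474 (0.0202 to 0.111) in exons. The median distance from a summit to the nearest TSS was 24.7 kb in pro-erythroblasts and 84.1 kb in erythroblasts. Within 5 kb of a TSS lay 17.4% (15.5% to 19.6%) of the former and 4.99% (4.43% to 5.62%) of the latter, and within 100 kb 79.9% and 53.6%.

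**Figure D4:**
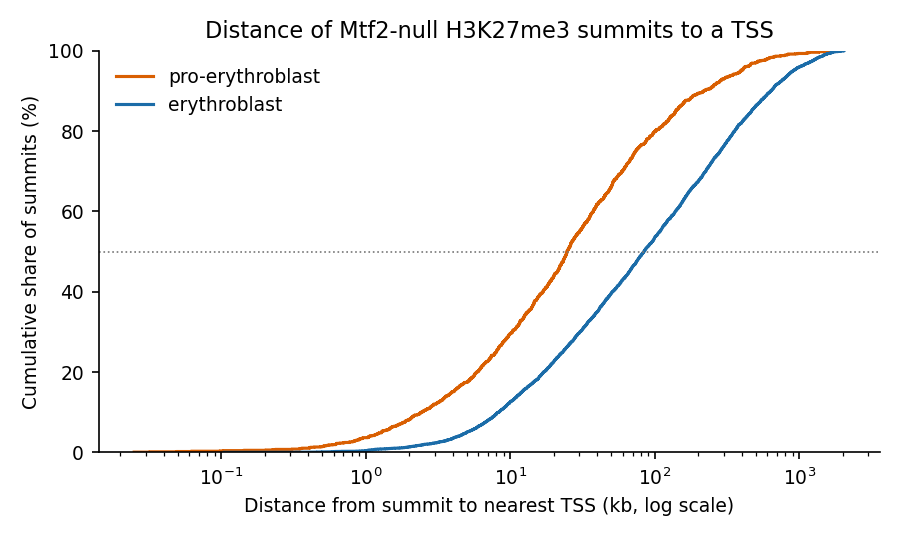
Cumulative share of summits against the distance to the nearest TSS in kb on a log axis for both Mtf2-null lists. The pro-erythroblast curve lies to the left over nearly the whole range, and it crosses 50% at 24.7 kb while the erythroblast curve crosses it at 84.1 kb.

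The 22 erythroblast summits in proximal promoters had an observed to expected CpG ratio of 0 to 0.248 in the 1 kb around them. None of them was overlapped by a WT erythroblast peak. The highest score was 99.2 at the olfactory receptor gene Olfr1381, followed by 85.3 at Cdc42bpa and 77.0 at Wdr16. The promoter peaks of pro-erythroblasts included 13 with island-like composition, meaning that the 1 kb around the summit had 50% GC or more and a CpG ratio, observed to expected, of 0.6 or more. Over the whole list, 35 pro-erythroblast peaks were island-like (2.63%, 95% Wilson interval 1.90% to 3.64%), against 0.651% of all autosomal 1 kb tiles. Among erythroblast peaks the count was 0, and the upper limit of the share that this count leaves is 0.0585%.

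Few genes with a peak near a TSS at 1 stage had one at the other, though the share was above that over all genes. With a window of 5 kb to both sides of each TSS, a peak was found at 270 of 21418 autosomal protein-coding genes in pro-erythroblasts (1.26%) and at 341 in erythroblasts (1.59%). The order of these counts turned with a 1 kb window (72 and 53), with peaks of at least 5-fold enrichment (258 and 172) and with equal numbers of peaks (270 and 78). Only 9 genes (0.042%) had such a peak in both lists. An erythroblast peak was thus found at 3.33% of the pro-erythroblast genes, against 1.59% of all genes. A pro-erythroblast peak was found at 2.64% of the erythroblast genes, against 1.26% of all genes. At 6 of the 9 the highest-scoring peaks of both stages overlapped, and at 3 they lay apart. With the window extended from 5 kb upstream to 1 kb past the end of the gene, 620 genes (2.89%) had a peak in pro-erythroblasts and 1074 (5.01%) in erythroblasts. Both stages had one at 83 genes, which is 13.4% of the former and 7.73% of the latter.

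The genes with overlapping peaks were Gm853, Rbbp5, Nrap, Efcab6, C1qtnf2 and Vwa5b2. Rbbp5 encodes a core subunit of the histone H3 lysine 4 methyltransferase complexes, and its peak 3.42 kb from a TSS had a score of 67.01 with 49 tags in pro-erythroblasts and 69.0 with 57 tags in erythroblasts. Nrap, a muscle anchoring protein gene, had scores of 55.0 and 91.25. Efcab6, which encodes an EF-hand protein, had 52.8 and 52.2, and C1qtnf2, of the C1q and TNF related family, had 62.3 and 50.2. Vwa5b2 had 50.2 and 53.6 and was the only one of the 9 with a summit within 1 kb of a TSS in both lists. Peaks that lay apart were found at the zinc finger gene Zfp763 (66.57 and 75.65), the ubiquitin protease gene Usp12 (61.15 and 52.7) and the hexokinase gene Hk1 (50.3 and 51.9).

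Some genes of the classes that Polycomb is known for had a Mtf2-null peak near a TSS in pro-erythroblasts, and none of the homeobox, Hox, Fox, Sox and T-box genes counted had one in erythroblasts. The list of homeobox and paired genes outside the Hox clusters held 66 genes and was not complete, as it left out Pou3f1 and Lbx1. Of the 66, 5 (7.58%) had a peak within 5 kb of a TSS in pro-erythroblasts, where the share over all genes was 1.26%. In erythroblasts it was 0 of 66, where the share over all genes was 1.59%. The transcription factor genes were Dlx2 (score 62.0), Lhx6 (59.9), Pax9 (56.2), Nkx2-5 (53.6) and Lhx1 (51.4), with 24 to 29 tags per peak. Hox genes had a peak in 2 of 40 cases (5%) in pro-erythroblasts, Hoxd11 with a score of 50.8 and Hoxc8 with 50.25, and in 0 of 40 in erythroblasts. Among the 70 Fox, Sox and T-box genes counted, 1 had a peak in pro-erythroblasts, Sox6, a regulator of globin switching, with a score of 58.7. In erythroblasts it was 0 of 70. This list was not complete either, as the T-box gene Eomes, with a pro-erythroblast peak (51.1), was counted only with the stem-cell, myeloid and lymphoid factors. With the whole gene taken, 3 of 70 (4.29%) had a peak at each stage, against 2.89% of all genes in pro-erythroblasts and 5.01% in erythroblasts. They were Sox5 (71.3), Tbx5 (64.7) and Sox6 in pro-erythroblasts and Sox6 (71.1), Sox30 (68.75) and Foxp2 (57.3) in erythroblasts. In the WT erythroblast list, 2562 of all 21418 genes had a peak. There, 55 of the 66 homeobox and paired genes and 31 of the 40 Hox genes had one. Of the 70 Fox, Sox and T-box genes, 40 had one. The Mtf2-null peaks near a TSS of the genes in these lists scored at most 62.0, where the lowest score of the pro-erythroblast list was 50.01.

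Genes tied to blood formation and to Polycomb itself were counted in the same way, with 1.26% of all genes in pro-erythroblasts and 1.59% in erythroblasts as the background. With lists this short, 1 or 2 members set the share. Among 42 erythroid genes only Rhd, which encodes an erythrocyte membrane protein, had a peak within 5 kb of a TSS, in pro-erythroblasts with a score of 57.1, and none had one in erythroblasts. Stem-cell, myeloid and lymphoid transcription factor genes had a peak in 2 of 28 cases in pro-erythroblasts, Eomes (51.1) and Etv6 (50.4), and in 0 of 28 in erythroblasts. With the whole gene taken, the shares over all genes were 2.89% in pro-erythroblasts and 5.01% in erythroblasts. Fli1 (56.2) and Erg (53.1) were then added in pro-erythroblasts, for 4 of 28, and Runx1 (59.0) in erythroblasts, for 1 of 28. Among the erythroid genes Zfpm1 (138.3) was then added in pro-erythroblasts, for 2 of 42, while erythroblasts stayed at 0 of 42. The Wnt ligand genes had no peak near a TSS in either list (0 of 19), nor did 46 genes of Wnt receptors, inhibitors and effectors. Peaks inside the gene were found at Wnt7a (83.3) and Wnt3a (59.0) in pro-erythroblasts, 2 of 19 ligand genes. In erythroblasts they were found at Wnt7b (51.7), 1 of 19, and at Kremen1 (50.1), 1 of 46. Among 29 genes of PRC2 and PRC1, Ezh2 had an erythroblast peak 2.71 kb from a TSS (chr6:47487453-47490332) with a score of 60.8, and none had a pro-erythroblast peak. Of 7 cyclin-dependent kinase inhibitor genes, Cdkn2a had a pro-erythroblast peak with a score of 55.6.

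Markers of other cells of the FL were counted against the same background. In pro-erythroblasts a peak lay near 1 of 7 macrophage genes, Emr1 (53.2), and near 0 of 11 hepatocyte, 0 of 9 megakaryocyte and 0 of 6 endothelial genes. In erythroblasts there was none near a TSS of these 4 lists. With the whole gene taken, the shares over all genes were 2.89% in pro-erythroblasts and 5.01% in erythroblasts. A pro-erythroblast peak was then found at 2 of 7 macrophage genes, Emr1 and Mertk (50.8), and 1 of 6 endothelial genes, Pecam1 (68.6). An erythroblast peak was found at 2 of 6 endothelial genes, Pecam1 (65.99) and Tek (57.4).

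Olfactory and vomeronasal receptor genes, which form large clusters of related copies, had peaks in erythroblasts more than in pro-erythroblasts. A peak lay within 5 kb of a TSS in 25 of 1081 olfactory receptor genes (2.31%) and 17 of 319 vomeronasal receptor genes (5.33%) in erythroblasts, against 1 and 0 in pro-erythroblasts. The share over all genes was 1.59% in erythroblasts and 1.26% in pro-erythroblasts. The highest vomeronasal scores were 162.5 at Vmn1r143 and 160.3 at Vmn2r30, where the peak spanned 8005 bp, and Vmn2r78 (123.2) and Vmn2r69 (116.1) followed. The highest olfactory score was 159.1 at Olfr371, followed by Olfr711 (158.3), Olfr769 (143.35) and Olfr1257 (141.3). At these olfactory and vomeronasal genes, the median share of 25-base words with 10 or more copies in the summit window was 75.2% and 74.9%. With the whole gene taken, 15 olfactory (1.39%) and 25 vomeronasal (7.84%) receptor genes had an erythroblast peak, against 5.01% of all genes. The olfactory share was thus above that over all genes near a TSS and below it over the whole gene. In pro-erythroblasts 1 gene of each family had a peak with the whole gene taken, against 2.89% of all genes. Near-identical members of these families can share reads, and how the authors placed reads with several matches is not given in the sources used here.

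Very long genes, mainly of neuronal adhesion, held peaks inside the gene, not at the TSS. From 5 kb upstream to 1 kb past the end, 26 of 45 (57.8%) had an erythroblast peak and 10 of 45 (22.2%) a pro-erythroblast peak, against 5.01% and 2.89% of all genes, and 0 of 45 had a peak within 5 kb of a TSS in either list. The median length of these genes was 755 kb and that of all genes 15.5 kb, so a longer gene has more room for a peak. In erythroblasts Lrp1b, a lipoprotein receptor gene, had the highest score (145.4). It was followed by Lrrtm4 (120.2), the netrin receptor gene Unc5d (119.6) and the ADP-ribosylhydrolase gene Macrod2 (108.0), which was placed in the list for its length. The transcription factor gene Sox5 was in the list too. It is among the 10 genes with a pro-erythroblast peak and was also counted with the Fox, Sox and T-box genes. Potassium channel genes had an erythroblast peak inside the gene in 13 of 93 cases and a pro-erythroblast peak in 3, with Kcnh8 (72.8, erythroblasts) and Kcng1 (50.9, pro-erythroblasts) near a TSS. Cadherin and protocadherin genes had one in 6 of 57 cases at each stage, and Cdh1, the E-cadherin gene, had a pro-erythroblast peak with a score of 55.9, 0.958 kb from a TSS. Pcdhgc5 (52.0) and Pcdhb22 (50.9) were the other members with a peak near a TSS.

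By nearest TSS, many erythroblast peaks shared a distant nearest gene. The gene with most peaks was Cntnap5a, a contactin-associated neuronal gene, which was nearest to 17 erythroblast peaks and 1 pro-erythroblast peak. The 17 peaks lay between 39.4 and 1871 kb from its TSS, and 1 of them inside the gene. Epha7, an ephrin receptor gene, the kainate receptor gene Grik2 and the protocadherin genes Pcdh17 and Pcdh7 were each nearest to 12. Csmd3, Dsel and the latrophilin gene Lphn3 were nearest to 11 each, and 5 genes tied at 10 (1700018B24Rik, Aga, Cntnap5b, Magi2 and Otol1). In pro-erythroblasts the highest numbers were 4 peaks nearest Auts2 and 4 nearest Vrk1. All 1331 pro-erythroblast peaks were spread over 1223 nearest genes, 1126 of which had 1 peak, and the erythroblast peaks over 2999, 2025 of which had 1. The lists had 350 nearest genes in common, or 28.6% of the former and 11.7% of the latter, where the autosomes hold 21418 protein-coding genes. No background was computed for nearest genes, which depend on the spacing of genes as well as on their number. Whether 350 is many or few was not tested.

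Most erythroblast peaks lay in sequence that occurs many times in the genome, and most pro-erythroblast peaks did not. At least 50% of the 25-base words in the 1 kb around the summit had 10 or more genome copies in 3746 erythroblast windows (73.0%, 95% Wilson interval 71.8% to 74.2%) and in 108 pro-erythroblast windows (8.11%, 6.76% to 9.70%). The level in autosomal 1 kb tiles taken at regular steps was 8.95%. The median share of such words per window was 71.6% in erythroblasts and 8.40% in pro-erythroblasts. Among the shared loci the pro-erythroblast peaks stood at 15% (7.06% to 29.1%), between the peaks of that stage only (7.90%, 6.55% to 9.50%) and the erythroblast-only peaks (73.4%, 72.2% to 74.6%), with an interval that includes the former.

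**Figure D5:**
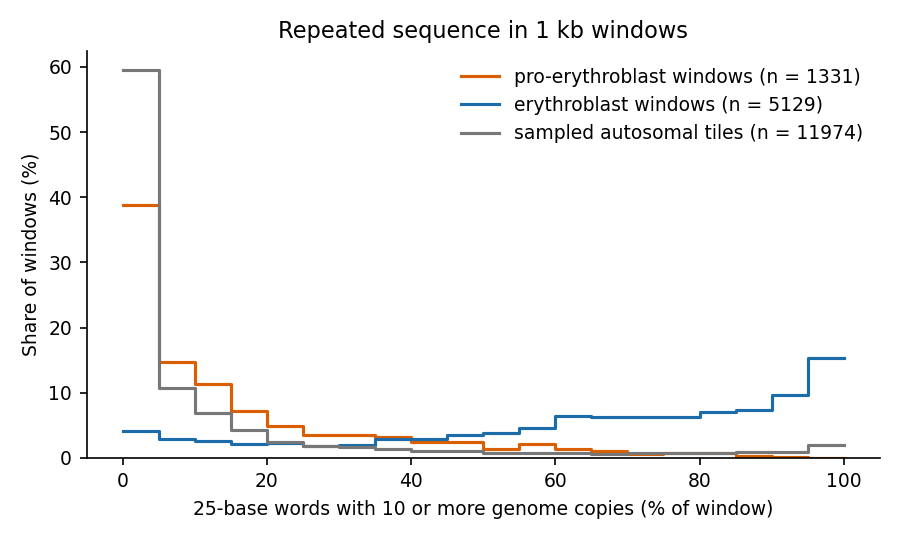
Distribution of the share of 25-base words with 10 or more genome copies in 1 kb windows around Mtf2-null pro-erythroblast (n = 1331) and erythroblast (n = 5129) summits and in 11974 sampled autosomal tiles, in steps of 5%. The erythroblast curve climbs toward 100%, whereas the pro-erythroblast curve is, as that of the tiles, highest near 0.

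The repeat content went with peak length. Of the 1269 erythroblast peaks under 1 kb, 39.3% (36.7% to 42.04%) had a majority of repeated words. The share was 76.7% (74.9% to 78.4%) from 1 to 2 kb, 94.3% (93.0% to 95.3%) from 2 to 5 kb and 97.2% (92.9% to 98.9%) in the 141 peaks of at least 5 kb. In pro-erythroblasts it was 5.56% (4.33% to 7.12%) under 1 kb and 16.7% (12.8% to 21.5%) from 1 to 2 kb, while 3 of the 6 peaks from 2 to 5 kb had such a majority (50%, 18.8% to 81.2%). In each of these length classes the share was lower in pro-erythroblasts, though the longest of them rests on 6 peaks. Erythroblast peaks without a majority of repeated words had 1.302% (0.825% to 2.05%) of summits in proximal promoters and 68.3% in intergenic sequence, still below and above the shares of bases.

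A pair of words recurred in many erythroblast windows. The first of these 25-base words was the one held by most erythroblast windows, and the next the one held by most of the windows left, so their frequency there is a description.
word 1: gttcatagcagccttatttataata
word 2: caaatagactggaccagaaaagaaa
They have 34271 and 15840 copies in the autosomes and X. At least 1 of them was present in 1100 erythroblast windows (21.4%, 95% Wilson interval 20.3% to 22.6%), in 32 pro-erythroblast windows (2.40%, 1.71% to 3.37%) and in 1.61% of the sampled tiles. Word 2 was in 10.3% of the erythroblast windows and in 0.150% of the pro-erythroblast windows. No annotation of repeat families was used, so the words were assigned to none.

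The base composition differed too. The median GC content of the 1 kb around the summit was 43.5% in pro-erythroblasts (95% interval 43.3% to 43.9%) and 38.7% in erythroblasts (38.6% to 38.8%), with 41.7% in all autosomal tiles. A GC content of at most 40% was found in 21.3% of the pro-erythroblast and 61.5% of the erythroblast windows, against 38.8% of the tiles.

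Against the WT lists, few Mtf2-null peaks of either stage overlapped a WT peak of the same stage. In pro-erythroblasts 15 of 1331 peaks (1.13%, 95% Wilson interval 0.684% to 1.85%) overlapped a WT pro-erythroblast peak, 3.27 times the 0.345% of even placement, and 78 (5.86%, 4.72% to 7.25%) overlapped a WT erythroblast peak. The latter is 15.9 times the 0.369% of even placement. In erythroblasts 27 of 5129 (0.526%, 0.362% to 0.765%) overlapped a WT erythroblast peak, as many as the 0.534% of even placement, and 43 (0.838%) a WT pro-erythroblast peak. The 78 pro-erythroblast peaks in WT erythroblast peaks had a median GC content of 46.8%, and 13 of them (16.7%, 10.0% to 26.5%) were island-like, compared with 1.76% (1.16% to 2.64%) of the other pro-erythroblast peaks. They included the Zfpm1 exon peak (138.3), a peak 9.64 kb from Prex1 (120.02), a Rac exchange factor gene, and the promoter peaks of Hes5 (77.7), a Notch target gene, and of the homeobox genes Pou3f1 (57.25) and Lbx1 (57.05). Prex1, these promoter genes and the 3 erythroblast promoter genes above were named after their values were seen. Pou3f1 and Lbx1 were not in the homeobox list counted above.

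Against the Mtf2 peaks of WT cells the stages differed too. Mtf2 peaks of WT pro-erythroblasts overlapped 679 Mtf2-null erythroblast peaks (13.2%, 95% Wilson interval 12.3% to 14.2%), where even placement gives 3.76%, but 19 Mtf2-null pro-erythroblast peaks (1.43%, 0.916% to 2.22%), where it gives 2.88%. The overlap was 17.2% (16.04% to 18.5%) for erythroblast peaks with a majority of repeated words and 2.46% (1.76% to 3.42%) for the others. In the Mtf2 list of WT pro-erythroblasts 81.7% of the windows had such a majority. The WT H3K27me3 lists stood at 60.1% in pro-erythroblasts and 3.88% in erythroblasts, so that the order of the stages in WT was opposite to that in the Mtf2-null lists.

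Peak density along the chromosomes differed between the stages. In pro-erythroblasts it ranged from 0.312 peaks per Mb on chromosome 14 to 0.799 on chromosome 5, and it was 0.733 on chromosome 11, which carries 13.9 protein-coding genes per Mb. In erythroblasts it ranged from 1.44 on chromosome 11 to 2.63 on chromosome 3, which carries 6.76 genes per Mb. Chromosome 7, with the most genes per Mb (14.6), had 0.543 pro-erythroblast and 2.40 erythroblast peaks per Mb. The autosomes together had 0.556 and 2.14. The ratio of erythroblast to pro-erythroblast peaks was lowest on chromosome 11, at 1.97, and highest on chromosome 14, at 7.24.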

How the data were processed

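H3K27me3 ChIP-seq of 2 sorted Mtf2-null fractions was analysed from the peak lists. Per the labels and the deposited file headers, the authors used Bowtie2 2.2.3 (Bowtie is named too), the mm9 build and, for peaks over IgG at a p cutoff of 1e-05, MACS 1.3.7. Alignment file names in the headers hold the word masked, without saying what was masked. The deposited tag counts per peak are not normalized. The deposited score is the negative log10 of the peak p, scaled up by 10, the deposited fold is the ratio of ChIP to local IgG, and the deposited FDR is a percent. Handling of reads with several matches is not given in the sources used here.

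Positions count from 1 and refer to NCBIM37 (mm9). TSS, exons and 21418 autosomal protein-coding genes came from GENCODE M1. Peaks overlapped when they shared 1 base. Even placement counts all positions at which a peak of the same length touches the other list. Words of 25 bases were counted in the autosomes and X, and every 200th 1 kb tile (11974) gave their background. Unless named otherwise, intervals of shares are 95% Wilson intervals and those of medians are exact binomial ones, all covering counting error only. A count of 0 is given with the share of 3 counts. Tags without molecular identifiers are not independent molecules. Depth ranged from 15669899 to 67169672 unique ChIP tags over the lists. No test across conditions was possible with 1 library each.

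The regions, gene lists and comparisons were chosen with earlier results of these data known. Genes and peaks were named by rule: the 5 highest-scoring peaks of each class and the 5 shared loci with the highest lower score, all genes near a peak in both lists, the 10 genes nearest to most erythroblast peaks, and up to 4 members of each gene list, with counts of 5 or fewer in full. The longest peaks, those of highest fold, the genes with a peak inside and those named beside WT peaks were added after their values were seen. The pattern for homeobox and paired genes was corrected after it was seen to match unrelated symbols. Alternatives were a score of at least 100, a fold of 5 or more, an FDR up to 5%, all chromosomes, equal numbers of peaks, other overlap and gene windows, the peak centre and the whole peak. Overlap, placement, word and repeat steps were tested on simulated data. The software was numba 0.67.0, pysam 0.24.0, matplotlib 3.10.9, scipy 1.17.1, pandas 2.3.3 and numpy 2.4.6 under Python 3.11.15.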

Additional observations from a re-analysis of the deposited data

Results flagged for a closer look

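The sex chromosomes lie outside the autosomal comparison and hold a large part of the Mtf2-null erythroblast list. Of its 5791 peaks, 662 (11.4%) were on chromosomes X and Y, 654 of them on X, which is 4.04 peaks per Mb of X against 2.14 per Mb of autosomes. In the WT erythroblast list 34 of 4490 peaks (0.757%) were on X, or 0.210 per Mb against 1.86 on autosomes. The WT pro-erythroblast H3K27me3 list had 5.95% of its peaks on X and Y. Shares of 10.8% and 10.1%, close to that of the Mtf2-null erythroblast list, were found in the Mtf2 lists of WT pro-erythroblasts and erythroblasts. The Mtf2-null pro-erythroblast list had 76 of 1407 peaks (5.40%) on X, or 0.469 per Mb against 0.556. The sex of the embryos is not in the labels, and its part in these numbers was not tested.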

How the results depend on the processing

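No value changed sign, but the order of the gene counts, 270 in pro-erythroblasts and 341 in erythroblasts, turned under 3 settings, to 72 and 53 with a 1 kb window, 258 and 172 with a fold of at least 5, and 270 and 78 with equal numbers of peaks. With a score of at least 100, which kept 16 pro-erythroblast and 432 erythroblast peaks, the ratio of peak numbers moved from 3.85 to 27 and that of covered length from 8.49 to 65.37, and the overlap was 0% of either list. Pro-erythroblasts then had a median length of 1232 bp, 0% of summits in proximal promoters, 62.5% between genes, 1 gene with a peak, 42.6% GC and 18.75% of windows mostly of repeated words. Erythroblasts had 2812 bp, 0%, 79.17%, 23 genes, 37.9% and 92.59%, and 0 genes had a peak in both. With a fold of at least 5 (1260 and 2927 peaks) the ratios were 2.323 and 5.022, 1.429% of pro-erythroblast peaks were overlapped, and erythroblasts had a median length of 1314 bp, 172 genes and 75.61% repeated windows, with 3 genes in both. With equal numbers of peaks, 1.277% and 1.052% of the peaks were overlapped, and erythroblasts had 2114 bp, 0.2254% in proximal promoters, 78.59% between genes, 78 genes, 38.1% GC and 87.9% repeated windows, with 3 genes in both. A 2 kb promoter window gave 8.264% and 1.365%. A 1 kb gene window gave 72, 53 and 1 genes in pro-erythroblasts, erythroblasts and both, and the gene window from 5 kb upstream 620, 1074 and 83. Whole peaks in erythroblasts had 38.85% GC. A further 29 values moved by less than their error. These moves follow from the peaks and windows kept by each setting.

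An FDR of at most 5% left no pro-erythroblast peak, so no comparison was computed. Repeated words under other settings were added after seeing the data. No paired analysis was possible because each condition had 1 library and no test was made. Depth, the ratio of ChIP to IgG and stage cannot be told apart.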
